A study of Homo sapiens with 9 samples.

Results

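The baseline transcriptome of solvent-treated KGN cells was measured in 3 RNA-seq libraries, of 9 in the whole series. KGN is an established human line derived from an ovarian granulosa cell tumour, and the labels give its genotype as WT and its cell type as ovarian granulosa cells. The cells were grown in DMEM with fetal bovine serum, fasted for 12 h and then kept with solvent for 72 h. The other 6 libraries, 3 at 1 µg/ml insulin and 3 at 0.5 µg/ml insulin, had the same fasting and treatment times and are not compared here. The members are the 3 libraries labelled solvent, numbered 1 to 3 as in their titles. The labels do not say whether the 3 came from separate cultures, so the spread between them may be technical. What serves as the solvent is not given in the labels, and 1 tumour line stands for the cell type.

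Granulosa cells line the ovarian follicle, nourish the oocyte and convert androgens from neighbouring theca cells into oestrogens under the control of follicle-stimulating hormone (FSH). The transcription factor FOXL2 maintains their identity in the adult ovary, GATA4 and NR5A1 activate genes of steroid and hormone synthesis, and FSHR is the receptor through which FSH acts. Granulosa cells arise from the surface and the mesenchyme of the embryonic gonad, and granulosa lineage cells are known to carry both epithelial features, such as simple keratins, and mesenchymal features, such as vimentin and N-cadherin.

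Levels are given in FPKM, the reads of a gene scaled by its length in kilobases and by the library total. Genes can thus be compared with each other only as far as the length used for each gene holds. Where 3 values are listed they belong to libraries 1, 2 and 3 in that order, and errors are standard deviations over the 3 libraries (SD, n = 3). A gene is called expressed at 1 FPKM or more in each library, scarce under 0.1 FPKM in each library, and intermediate otherwise. Library totals ran from 18965722 to 20446405 counts, and between 14437 and 14454 of the 15983 genes in the table had a count in a library. A count of 0 in a library, taken alone, allows up to 3 counts there, which is 0.158 CPM (counts scaled to the library total) at the smallest total. Such limits cover counting error only. A 0 in this table need not be a matter of depth: UBB, a ubiquitin gene, and FKBP2, a folding enzyme gene, which cells in general use, also had 0 counts in all 3 libraries. A 0 is therefore given as a count of the table and not as a bound on the transcript.

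Each of 5 marker genes was expressed, as were 66.5% of all genes. FOXL2, GATA4 and FSHR were taken as granulosa markers, and COL1A1 and CDH2 as stromal and mesenchymal ones. Other granulosa genes given below, such as INHA and AMHR2, were not expressed, so the markers do not settle the labelled cell type. FOXL2 (chr3:138944224-138947137, hg38) was measured at 8.36, 8.69 and 9.95 FPKM. GATA4 stood higher, at 35.8, 39.0 and 39.7 FPKM. FSHR (chr2:48962157-49154515) stood near the limit of the call, at 1.23, 1.33 and 1.81 FPKM, with library 3 the highest. COL1A1, the alpha-1 chain of type I collagen and a stromal marker, was measured at 1564, 1611 and 1470 FPKM. CDH2, which encodes N-cadherin, was measured at 78.2, 73.9 and 72.8 FPKM. The ranges of these 5 genes over the libraries did not overlap, so their order (COL1A1, CDH2, GATA4, FOXL2, FSHR) was the same in every library. The libraries hold RNA of many cells, so a low level in all cells and a higher level in few cells cannot be told apart.

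Of the 15983 genes, 10633 (66.5%) were expressed, 2613 (16.3%) intermediate and 2737 (17.1%) scarce. The counts of expressed members of each list or family below are to be read beside these shares. Among the scarce genes 771 (4.82% of the table) had no count in any of the 3 libraries. At the other end, 499 genes (3.12%) reached 100 FPKM in each library and 31 reached 1000 FPKM in each. The median of the mean level was 4.07 FPKM over all genes and 9.18 FPKM over the expressed genes. The distribution of levels had a single broad mode near 10 FPKM and a long shoulder of low values under 1 FPKM. Just inside the limit of 1 FPKM stood LSR, TYRP1 and ZNF823, each with a lowest library between 1.00131 and 1.00203 FPKM, and just outside it stood SFT2D3, ZNF74 and ZSCAN16, each with a lowest library between 0.998479 and 0.999358 FPKM.

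**Figure D1:**
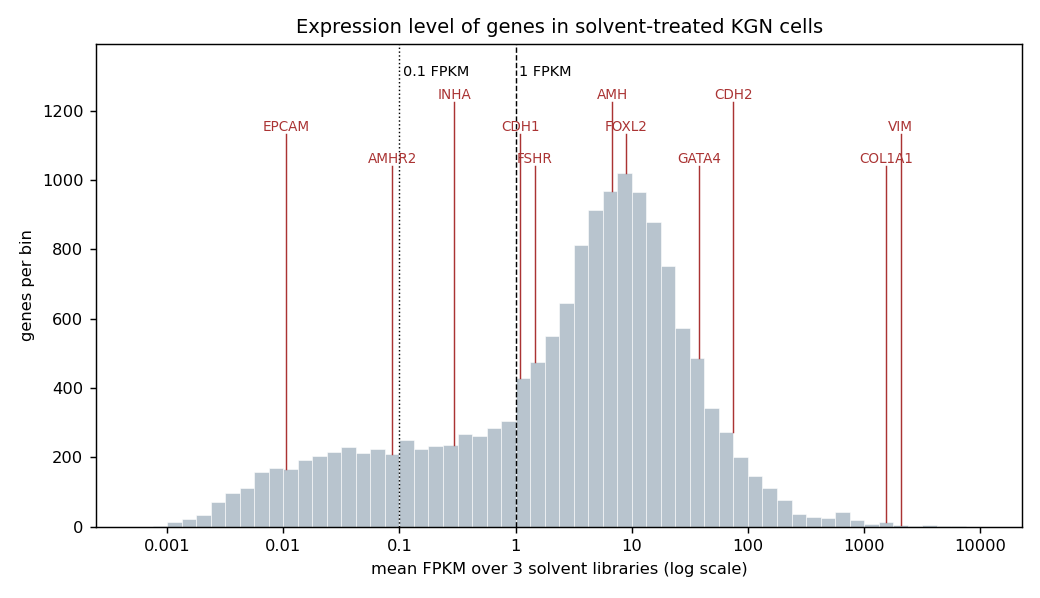
Number of genes (vertical axis) by mean FPKM over the 3 solvent libraries (horizontal axis, log scale); genes at 0 FPKM in all 3 libraries are left out. Dashed and dotted lines mark 1 and 0.1 FPKM, and red lines mark named genes, from EPCAM at 0.0105 FPKM to VIM at 2065 FPKM.

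Promoters of expressed genes held more CpG dinucleotides than those of scarce genes. CpG-rich promoters are typical of genes read in many tissues, and CpG-poor promoters of genes limited to few. RefSeq promoter sequences (GRCh38.p14, 250 bases before to 50 after the start of transcription) matched 12858 of the 15983 genes. The median number of CpG dinucleotides in these 300 bases was 10 for the 2028 matched scarce genes, 18 for the 1979 intermediate ones, 26 for the 4802 expressed genes not at 10 FPKM in every library, 28 for the 3647 genes at 10 FPKM or more in every library but not at 100 in every library, and 26 for the 402 genes with at least 100 FPKM in each. The interquartile ranges of the scarce genes (4 to 25) and of these 3647 genes (20 to 36) overlapped. The TATA motif TATAAA, searched on both strands, was found in 12.9% of scarce, 11.2% of intermediate, 4.60% of the 4802, 4.99% of the 3647 and 9.70% of the 402 genes, against 9.64% of all 15812 protein-coding promoters. The motif CCAAT was found in 34.9% of scarce genes and 38.6% of the 402 highest, against 36.3% of all such promoters. GGGCGG, the core of the GC box, was found in 43.0% and 74.6%, against 58.5%. The ends of these 3 motifs can share bases, and each was counted separately. Promoters are described here as sequence only, since no binding or methylation was measured.

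The sequences below are those of genes the description turns on, and they show that a single gene need not follow these medians, with every CG dinucleotide in capitals and all other bases in lower case, 5′ to 3′ on the strand of the gene. TMSB10 (chr2:84905406-84905705, + strand) and B2M (chr15:44711267-44711566, + strand) are the most abundant transcripts, FOXL2 (chr3:138947088-138947387, − strand) and FSHR (chr2:49154466-49154765, − strand) are granulosa genes that are both expressed, and CYP17A1 (chr10:102837364-102837663, − strand) is a theca gene without a count.
TMSB10: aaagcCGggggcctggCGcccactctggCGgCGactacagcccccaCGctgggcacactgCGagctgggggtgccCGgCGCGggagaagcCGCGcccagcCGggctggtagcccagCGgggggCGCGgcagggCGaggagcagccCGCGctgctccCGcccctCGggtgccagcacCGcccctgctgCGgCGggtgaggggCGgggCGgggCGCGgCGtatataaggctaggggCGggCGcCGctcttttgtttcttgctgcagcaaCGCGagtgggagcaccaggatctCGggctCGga
B2M: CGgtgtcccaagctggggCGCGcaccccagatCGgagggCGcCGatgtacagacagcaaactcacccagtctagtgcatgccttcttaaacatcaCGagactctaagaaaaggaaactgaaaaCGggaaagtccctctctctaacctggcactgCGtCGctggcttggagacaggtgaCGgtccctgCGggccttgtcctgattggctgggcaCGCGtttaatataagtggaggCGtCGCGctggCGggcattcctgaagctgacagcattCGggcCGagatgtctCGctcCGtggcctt
FOXL2: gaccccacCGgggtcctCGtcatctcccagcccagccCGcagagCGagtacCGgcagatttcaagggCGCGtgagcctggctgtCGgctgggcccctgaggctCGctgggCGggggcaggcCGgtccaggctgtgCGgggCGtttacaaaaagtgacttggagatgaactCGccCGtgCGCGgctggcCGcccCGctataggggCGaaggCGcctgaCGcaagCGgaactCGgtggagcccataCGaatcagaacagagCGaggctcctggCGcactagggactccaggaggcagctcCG
FSHR: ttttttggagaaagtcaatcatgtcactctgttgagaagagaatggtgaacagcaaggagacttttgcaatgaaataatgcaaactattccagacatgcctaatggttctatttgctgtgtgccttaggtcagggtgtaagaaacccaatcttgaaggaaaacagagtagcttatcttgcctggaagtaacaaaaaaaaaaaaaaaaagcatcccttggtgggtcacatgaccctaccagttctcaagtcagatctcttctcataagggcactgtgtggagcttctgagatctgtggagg
CYP17A1: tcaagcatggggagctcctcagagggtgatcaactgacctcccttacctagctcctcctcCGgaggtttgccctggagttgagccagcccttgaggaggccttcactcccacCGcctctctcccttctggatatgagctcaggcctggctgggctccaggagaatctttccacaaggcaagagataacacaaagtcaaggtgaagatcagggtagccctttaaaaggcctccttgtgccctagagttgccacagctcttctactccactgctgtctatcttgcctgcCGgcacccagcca

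The 300 bases of TMSB10 hold 35 CG dinucleotides, those of FOXL2 28 and those of B2M 22. CYP17A1 has 3 and FSHR none, while FSHR was expressed and CYP17A1 had no count. Only 0.354% of the promoters of the 4802 expressed genes not at 10 FPKM in every library hold no CG dinucleotide, and 3.06% of those of scarce genes. GGGCGG was found in TMSB10 and FOXL2, CCAAT in B2M and FSHR, and TATAAA in none of the 5.

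The most abundant transcripts belonged to antigen presentation, iron storage, the actin skeleton and the ribosome. The 10 highest genes held between 10.3% and 10.8% of all FPKM in a library, and the 100 highest between 33.6% and 33.8%. B2M, the light chain of MHC class I, came first in mean level, at 5612, 5731 and 5925 FPKM. TMSB10 (thymosin beta-10, which binds monomeric actin) was measured at 4560, 4662 and 4691 FPKM. The lowest B2M value lay above the highest TMSB10 value. FTL, the ferritin light chain, had 3844, 4442 and 4889 FPKM, with library 1 lowest, and its range enclosed that of TMSB10. FTH1, the ferritin heavy chain, averaged 3838 ± 233 FPKM and ACTB, beta-actin, 3797 ± 32.2 FPKM, and their ranges overlapped.

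Among the 30 highest genes, HLA-B, a heavy chain of MHC class I, stood beside B2M at 1524 ± 129 FPKM. Another 3 are known as interferon-induced genes: IFITM3, a membrane protein that blocks virus entry, at 2994 ± 154 FPKM, the mitochondrial protein gene IFI27 at 1488 ± 148 FPKM and IFI6 at 1408 ± 67.5 FPKM. The actin skeleton gave 5 (ACTB, ACTG1, TMSB10, TMSB4X and the myosin light chain MYL6). ACTG1 averaged 1780 ± 31.5, TMSB4X 3211 ± 312 and MYL6 1292 ± 53.3 FPKM. Ribosomal protein genes among them were RPL13A (1621 ± 44.9 FPKM), RPS2 (1567 ± 49.4), RPL12 (1468 ± 42.8) and RPS18 (1383 ± 151). The ribosomal protein family as a whole had 78 of 79 members expressed and took 10.4% ± 0.256 of all FPKM.

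Intermediate filaments were represented by VIM, vimentin, at 2042, 2102 and 2049 FPKM, and by KRT18, keratin 18, at 1223, 1113 and 1129 FPKM. VIM was 1.79 ± 0.112 times KRT18. The calcium-binding protein gene S100A6 averaged 3214 ± 227 FPKM, and the galectin gene LGALS1 averaged 2245 ± 90.3 FPKM. LGALS3BP, a secreted glycoprotein that binds galectins, averaged 1707 ± 49.0 FPKM. Secreted matrix and binding proteins were SPARC (1611 ± 39.9 FPKM), COL1A1 (1548 ± 72.1) and IGFBP7 (1180 ± 58.8). GAPDH of glycolysis (3136 ± 54.3 FPKM), the translation factor EEF1A1 (1514 ± 67.2) and the endoplasmic reticulum chaperone CALR (1595 ± 25.3) were also among the 30. By counts, which do not correct for length, COL1A1 ranked at 1, ACTB at 2 and FN1 at 3, while by FPKM they ranked 20, 5 and 59. MYH9, the long heavy chain of non-muscle myosin, ranked at 9 by counts and 81 by FPKM.

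Several of these genes have near-identical copies elsewhere, and how the authors treated reads with several matches is not given in the sources used here. In GENCODE 29, 60.1% of the FTL transcript, 45.0% of FTH1, 51.8% of RPL13A, 74.9% of RPS18, 79.3% of RPS2, 99.2% of RPL12 and 35.3% of EEF1A1 lie in a stretch of at least 100 bases that is at least 97% identical to a transcript of another gene. The same holds for 17.2% of the IFITM3 transcript and 8.93% of TMSB4X. No such stretch was found for B2M and TMSB10. For HLA-B none was found either, but the search left out genes that overlap the gene searched. HLA-C, a related gene, overlaps 1.15% of HLA-B exon bases, so near-identity to HLA-C was not tested. On the opposite strand, 62.4% of FTH1 exon bases lie under BEST1. The levels of the genes with copies or overlaps are uncertain to that extent.

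Of 34 measured genes of a granulosa cell list, 22 (64.7%) were expressed, 7 were intermediate and 5 scarce, with a median mean level of 3.16 FPKM. Over all genes the expressed share was 66.5% and the median 4.07 FPKM, so the list as a whole stood near the table. Its highest members were SERPINE2, a secreted protease inhibitor, at 182, 180 and 134 FPKM, and CITED2, a transcription cofactor of gonad formation, at 141, 154 and 165 FPKM. GJA1, the connexin 43 of granulosa gap junctions, had 112, 112 and 124 FPKM. The long pentraxin PTX3, made by the cumulus around the ovulated oocyte, averaged 34.2 ± 2.15 FPKM and FST, follistatin, which binds activins, 26.8 ± 1.44 FPKM.

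Transcription factors of the somatic gonad were expressed at graded levels. GATA4 averaged 38.2 ± 2.09 FPKM, which was 4.77 ± 0.238 times the level of its relative GATA6, which had 7.46, 7.81 and 8.79 FPKM. NR5A1, steroidogenic factor 1, was measured at 20.5, 18.8 and 18.9 FPKM. FOXL2, with its range from 8.36 to 9.95 FPKM, overlapped GATA6. LHX9, a LIM homeobox factor of the early gonad, had 7.47, 9.24 and 10.1 FPKM and overlapped both FOXL2 and GATA6. WT1, the Wilms tumour factor of gonadal and mesothelial precursors, was close to the limit at 1.24, 1.40 and 1.12 FPKM. NR5A2, the relative of NR5A1 that is known to act in mature granulosa cells, had 0.110, 0.103 and 0.0899 FPKM.

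Hormone genes of the follicle were split between expressed and nearly undetected members. AMH, anti-Müllerian hormone, had 6.67, 6.76 and 6.89 FPKM, while its own receptor gene AMHR2 had 0.109, 0.0510 and 0.101 FPKM, from 4, 2 and 4 counts. INHBA, the beta-A subunit that activins and inhibins share, had 8.51, 8.52 and 10.2 FPKM, and INHBB, the beta-B subunit, averaged 2.65 ± 0.372 FPKM. INHA, the alpha subunit that makes an inhibin, had 0.234, 0.220 and 0.434 FPKM, from 6, 6 and 12 counts. The INHBA level was 32.9 ± 8.16 times that of INHA. KITLG, the ligand that granulosa cells offer to the KIT receptor of the oocyte, had 4.68, 5.16 and 6.48 FPKM, below AMH in each library.

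The 5 scarce members of the list were CCND2, GREM1, ESR2, LHCGR and RSPO1. CCND2, cyclin D2, known as an FSH target in rodent granulosa cells, had 6, 6 and 0 counts. GREM1, a secreted antagonist of bone morphogenetic proteins, averaged 0.0287 ± 0.0156 FPKM. ESR2, the oestrogen receptor beta of granulosa cells, had 1, 5 and 0 counts. LHCGR, the receptor for luteinising hormone, had 1, 0 and 0 counts. RSPO1, an enhancer of WNT signalling in the fetal ovary, had none. WNT4, the WNT ligand of ovarian differentiation, averaged 0.0726 ± 0.0260 FPKM. The listed genes EMX2 and BMP2 are not analysed here.

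Genes for the entry into steroid synthesis and for aromatase were expressed, and those for several steps between were low. Of 27 measured genes 20 (74.1%) were expressed, with a median of 5.13 FPKM, and together they took 0.112% ± 0.00214 of all FPKM. Over all genes the expressed share was 66.5% and the median 4.07 FPKM. SCARB1, the receptor for high-density lipoprotein that supplies cholesterol, averaged 9.45 ± 0.920 FPKM. TSPO, a cholesterol-binding protein of the outer mitochondrial membrane, was the highest of the list at 123 ± 7.85 FPKM. STAR, which brings cholesterol into mitochondria, had 9.66, 10.8 and 12.1 FPKM. CYP11A1, which cleaves its side chain to give pregnenolone, had 2.94, 2.37 and 2.77 FPKM. Its electron carriers FDX1 and FDXR averaged 5.13 ± 0.691 and 14.6 ± 0.454 FPKM, both above CYP11A1 in each library.

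Several genes of later steps had few or no counts, while HSD17B1 and CYP19A1 stood higher. HSD3B2, which turns pregnenolone into progesterone, had 7, 2 and 7 counts (0.147 ± 0.0811 FPKM). Its relative HSD3B1 had 2, 3 and 0 counts. CYP17A1, which makes androgens in theca cells, had 0 counts in all 3 libraries, and 41.1% of its exon bases lie under another coding gene on the opposite strand. CYP21A2, of the adrenal cortex, averaged 0.0168 ± 0.0146 FPKM, and 73.0% of its transcript is near-identical to CYP21A1P. HSD17B1, which makes oestradiol from oestrone, was intermediate at 0.661, 0.543 and 0.651 FPKM. CYP19A1, aromatase, was expressed at 1.25, 1.74 and 1.62 FPKM, from 134, 198 and 186 counts, and library 1 was the lowest. The ranges of CYP19A1, FSHR and WT1 overlapped, so no order can be given among them.

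Enzymes that serve more than steroid hormones stood higher. AKR1C3, a reductase of keto groups on steroids and prostaglandins, averaged 52.0 ± 2.58 FPKM, HSD17B4 of peroxisomal fatty acid oxidation 46.5 ± 2.49 FPKM and HSD17B12 of fatty acid elongation 21.6 ± 0.907 FPKM. AKR1C1 averaged 13.6 ± 0.968 FPKM, and 56.1% of its transcript is near-identical to AKR1C2, which averaged 1.32 ± 0.199 FPKM.

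**Figure D2:**
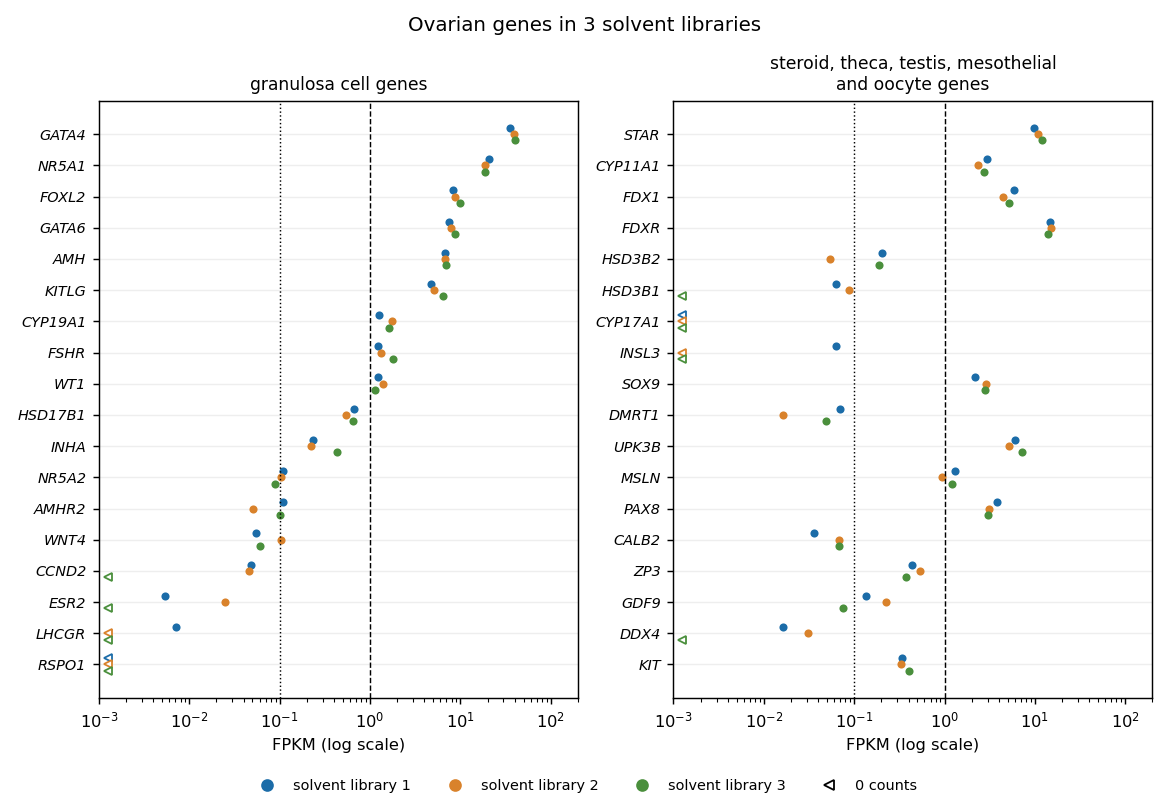
FPKM (horizontal axes, log scale) of granulosa genes (left) and of steroid, theca, testis, mesothelial and oocyte genes (right) in each of the 3 solvent libraries (coloured points; open triangles at the left edge are 0 counts). Dashed and dotted lines mark 1 and 0.1 FPKM; GATA4 stands at the top of the granulosa panel, RSPO1 has 0 counts in all 3 libraries, and so has CYP17A1.

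Other cell types of the gonad were represented in part. Of 14 theca and Leydig cell genes 3 were expressed (NR2F2, STAR and CYP11A1), with a median of 0.133 FPKM. NR2F2, an orphan nuclear receptor of gonadal stroma that the granulosa list also holds, averaged 26.6 ± 2.50 FPKM. INSL3, the insulin-like hormone of theca and Leydig cells, had 1, 0 and 0 counts. Of 10 Sertoli cell genes 7 (70.0%) were expressed, near the 66.5% of all genes. KRT18, GATA4, AMH and WT1 are among them and stand in other lists too. SOX9, the factor that directs Sertoli cells and is held down by FOXL2 in the mouse ovary, had 2.17, 2.86 and 2.80 FPKM. FOXL2 was higher than SOX9 in each library. DMRT1, which maintains the male fate in the mouse testis, had 4, 1 and 3 counts. CLDN11, a claudin of Sertoli cell junctions, was abundant for its family at 101, 95.9 and 105 FPKM.

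Of 13 measured oocyte and germ cell genes, 0 were expressed, 6 were intermediate and 7 scarce. ZP3, a zona pellucida protein, averaged 0.446 ± 0.0812 FPKM and GDF9, an oocyte growth factor, 0.145 ± 0.0764 FPKM. DDX4, the germ cell helicase, had 1, 2 and 0 counts. Another 13 listed oocyte genes are not analysed here. Of 15 genes of the ovarian surface and mesothelium, 9 were expressed, with a median of 1.72 FPKM. The uroplakin gene UPK3B had 5.98, 5.23 and 7.15 FPKM, PAX8, a factor of Müllerian and renal epithelium, 3.82, 3.12 and 3.03 FPKM, and mesothelin (MSLN) 1.30, 0.935 and 1.21 FPKM. CALB2, calretinin, had 1, 2 and 2 counts.

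Genes of stroma and mesenchyme were among the strongest programmes. Of 30 measured mesenchymal genes 23 (76.7%) were expressed, against 66.5% of all genes, and 9 of them stood at 100 FPKM or more in each library. The median of the list was 20.5 FPKM against 4.07 FPKM for all genes. The list took 3.48% ± 0.0632 of all FPKM. Besides VIM, S100A6 and LGALS1, the fibronectin gene FN1 had 733, 731 and 712 FPKM. THY1, a surface protein of fibroblasts, had 40.7, 43.1 and 40.8 FPKM and PDGFRB, a receptor for platelet-derived growth factor, 18.5, 19.3 and 19.9 FPKM. The known repressors of epithelial genes were mostly expressed. TWIST1 averaged 21.7 ± 0.706, SNAI2 17.8 ± 0.861, ZEB1 8.91 ± 0.571 and ZEB2 8.73 ± 0.641 FPKM, whereas SNAI1 stood at 0.384 ± 0.0157 FPKM.

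Some fibroblast genes were nearly undetected in the same libraries. FAP, fibroblast activation protein, had 1, 2 and 5 counts. POSTN, periostin, had 0, 0 and 1 counts, and MFAP5, a microfibril protein, averaged 0.0592 ± 0.0383 FPKM. These 3 were the scarce members of the list. DCN, the small proteoglycan decorin, had 0.195, 0.225 and 0.250 FPKM.

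Contractile genes were mostly high, ACTA2 of smooth muscle among them, while MYH11 and DES stood low. Of 21 genes 18 (85.7%) were expressed, with a median of 112 FPKM, against 66.5% and 4.07 FPKM for all genes. FLNA, which crosslinks actin, averaged 387 ± 13.0 FPKM, the tropomyosin TPM1 356 ± 18.8 FPKM and the actin-binding caldesmon CALD1 287 ± 15.9 FPKM. ACTA2, smooth muscle actin, had 234, 213 and 213 FPKM, and ACTB was 17.3 ± 1.04 times higher. TAGLN, transgelin, which often accompanies ACTA2, had 29.8, 25.6 and 18.6 FPKM, so that ACTA2 was 9.20 ± 1.94 times higher. CNN1, calponin of smooth muscle, averaged 2.57 ± 0.617 FPKM. MYH11, smooth muscle myosin, had 0, 1 and 0 counts and DES, desmin, averaged 0.110 ± 0.0396 FPKM.

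Fibrillar collagens led their family, of which 15 of 40 members (37.5%) were expressed, against 66.5% of all genes. COL1A1 was 2.89 ± 0.139 times COL1A2, which had 561, 528 and 518 FPKM. COL3A1, of type III collagen, had 643, 637 and 739 FPKM and overlapped neither COL1A1 nor COL1A2. COL4A2, of the basement membrane, averaged 277 ± 14.3 FPKM and COL4A1 81.9 ± 4.88 FPKM. Type VI collagen, known as an assembly of 3 different chains, was uneven: COL6A2 averaged 188 ± 7.92 and COL6A1 117 ± 3.45 FPKM, while COL6A3 had 0.285, 0.236 and 0.225 FPKM. COL6A2 was 764 ± 71.0 times COL6A3. COL2A1, the cartilage collagen, averaged 0.00275 ± 0.00477 FPKM.

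Of 41 other matrix genes 28 (68.3%) were expressed, near the 66.5% of all genes. Their median was 14.1 FPKM, against 4.07 FPKM for all genes. THBS1, thrombospondin 1, had 761, 750 and 726 FPKM and overlapped FN1. The matricellular genes CCN2 and CCN1 averaged 723 ± 29.5 and 515 ± 15.8 FPKM, and the basement membrane proteoglycan gene HSPG2 203 ± 8.13 FPKM. Of 12 laminin chains 7 were expressed. LAMB2 at 82.4 ± 2.05, LAMB1 at 76.0 ± 5.30 and LAMC1 at 64.2 ± 1.46 FPKM stood above LAMA5 at 21.1 ± 1.24 FPKM. ELN, elastin, had 0 counts in all 3 libraries.

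Of 40 matrix enzymes and inhibitors 29 (72.5%) were expressed, against 66.5% of all genes. LOX, which crosslinks collagen, had 599, 625 and 550 FPKM, and the collagen chaperone SERPINH1 265, 268 and 247 FPKM. The protease inhibitor TIMP2 was 7.73 ± 0.337 times MMP2, the gelatinase, which averaged 71.8 ± 3.56 FPKM. The membrane protease MMP14 averaged 49.7 ± 2.37 FPKM. MMP9 and MMP3 had 0 counts in all 3 libraries. Among 23 integrins 15 (65.2%) were expressed, near the share of all genes. The highest were ITGA3 (417 ± 30.2 FPKM), the shared beta subunit ITGB1 (372 ± 8.39) and ITGA5 of the fibronectin receptor (291 ± 10.1).

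Epithelial genes were expressed in part. Of 33 measured genes 15 (45.5%) were expressed, 7 intermediate and 11 scarce, with a median of 1.02 FPKM. Over all genes the expressed share was 66.5% and the median 4.07 FPKM. CDH1, E-cadherin, had 1.18, 1.19 and 0.905 FPKM, so that CDH2 was 66.0, 61.9 and 80.4 times higher in the 3 libraries. EPCAM, an epithelial adhesion molecule, had 0, 0 and 1 counts. ESRP1 and ESRP2, splicing regulators of epithelial cells, had 0, 4 and 3 counts and 5, 7 and 5 counts.

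Some junction genes of the list stood well above these. PKP2, plakophilin 2, had 41.6, 40.2 and 42.4 FPKM and overlapped TJP1, the tight junction scaffold ZO-1, at 35.8, 39.4 and 42.6 FPKM. DSG2, desmoglein 2, averaged 27.3 ± 1.09 FPKM, DSP, desmoplakin, 17.0 ± 0.678 FPKM and JUP, plakoglobin, 16.4 ± 1.30 FPKM. Other desmosomal cadherins were low: DSC2 averaged 0.312 ± 0.0950 FPKM, DSC1 was scarce, and DSG1, DSG3 and DSG4 had 0 counts in all 3 libraries. OCLN, occludin of tight junctions, had 2.06, 2.45 and 1.87 FPKM. ERBB3, a receptor for neuregulins, averaged 35.6 ± 1.46 FPKM.

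Keratins spanned almost the whole range of the table, with 13 of 34 expressed, 5 intermediate and 16 scarce. KRT18 was 43.9, 40.1 and 43.7 times KRT8, its usual partner in simple epithelia, which had 27.8, 27.7 and 25.8 FPKM. The genes lie next to each other on opposite strands, and 16.3% of KRT18 exon bases lie under KRT8, while the strand setting of the counts is not given in the sources used here. KRT81, a hair keratin, had 455, 406 and 392 FPKM and was 57.8 ± 2.74 times KRT86, another hair keratin, within whose bounds on chromosome 12 it lies. KRT80 averaged 59.5 ± 4.94 FPKM and KRT15, a keratin of basal layers, 19.6 ± 1.53 FPKM. KRT7 and KRT19, of simple epithelia, averaged 7.76 ± 1.08 and 2.83 ± 0.485 FPKM. KRT5, of the basal epidermis, had 0, 0 and 2 counts.

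In the junction families the expressed share was below the 66.5% of all genes. Of 15 claudins 4 were expressed: CLDN11, CLDN1 at 27.7 ± 2.25 FPKM, CLDN12 at 7.75 ± 0.121 FPKM and CLDN15 at 5.00 ± 0.395 FPKM. Of 16 cadherins 6 were expressed, and after CDH2 came CDH11 of mesenchyme at 64.0 ± 4.96, CDH13 at 36.6 ± 2.01 and CDH6 at 16.5 ± 1.64 FPKM. Of 10 connexins 2 were expressed, GJA1 and GJC1.

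**Figure D3:**
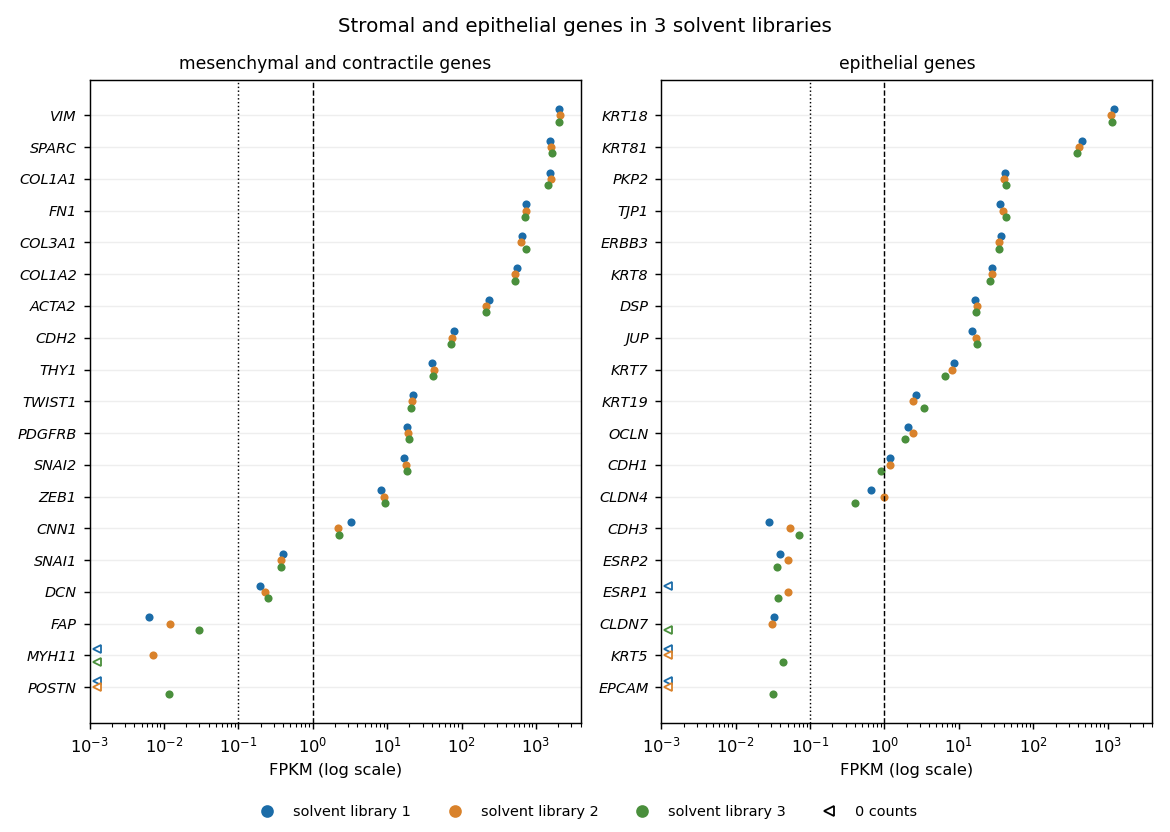
FPKM (horizontal axes, log scale) of mesenchymal and contractile genes (left) and epithelial genes (right) in each of the 3 solvent libraries (coloured points; open triangles at the left edge are 0 counts). VIM, SPARC and COL1A1 lie above 1000 FPKM and FAP, MYH11 and POSTN under 0.1 FPKM on the left; on the right KRT18 lies above 1000 FPKM and EPCAM under 0.1 FPKM.

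Of 38 measured hormone receptors and nuclear receptors 26 (68.4%) were expressed, near the 66.5% of all genes, with a median of 1.85 FPKM against 4.07 FPKM. INSR, the insulin receptor, had 1.34, 1.42 and 1.63 FPKM, and overlapped FSHR. IGF1R, the insulin-like growth factor receptor that signals, averaged 5.12 ± 0.166 FPKM, and IGF2R, which clears insulin-like growth factor from the surface, averaged 25.4 ± 0.507 FPKM, without overlap among the 3. The glucocorticoid receptor NR3C1 had 7.62, 7.69 and 8.62 FPKM. The progesterone receptor PGR was near the limit at 1.23, 1.09 and 1.34 FPKM. The oestrogen receptor ESR1 was scarce, with 14, 9 and 6 counts. PGRMC1, a membrane haem protein, was the highest of the list at 55.3 ± 2.46 FPKM, and OXTR, the oxytocin receptor, averaged 23.5 ± 0.272 FPKM.

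Of 40 growth factor receptors 25 (62.5%) were expressed, near the 66.5% of all genes. AXL, the receptor for GAS6, stood apart at 237, 229 and 214 FPKM, above EPHA2, an ephrin receptor, at 53.6 ± 1.46 FPKM and the collagen receptor DDR2 at 43.5 ± 1.83 FPKM. MET (35.6 ± 0.562 FPKM), FGFR1 (35.4 ± 1.35) and ERBB3 overlapped, and EGFR averaged 25.2 ± 0.907 FPKM. KIT, the receptor for KITLG, was intermediate at 0.339, 0.327 and 0.400 FPKM.

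Of 59 measured genes of secreted factors 45 (76.3%) were expressed, with a median of 10.9 FPKM, against 66.5% and 4.07 FPKM for all genes. All 7 genes for binding proteins of insulin-like growth factors were expressed, from IGFBP2 at 2.73 ± 0.230 FPKM to IGFBP7. IGFBP3, the main carrier in serum, averaged 120 ± 9.68 FPKM. IGF1 had 0, 1 and 0 counts. IGF2 had 0 counts in all 3 libraries, but 73.7% of its exon bases lie under other annotated coding gene entries, INS-IGF2 among them, so its level is uncertain. The WNT antagonist genes DKK3 and DKK1 averaged 147 ± 3.76 and 74.8 ± 2.42 FPKM, and the heparin-binding factor PTN 75.2 ± 5.20 FPKM. VEGFA, a growth factor for vessels, had 63.9, 60.7 and 49.2 FPKM, with library 3 lowest, and BMP4, of the bone morphogenetic proteins, had 53.7, 60.9 and 68.9 FPKM. The inflammatory cytokines CXCL8 and IL6 averaged 23.2 ± 3.42 and 6.30 ± 0.978 FPKM, while CCL2 had 1 count in each library.

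Families of developmental transcription factors were expressed in part. HOX genes, which record position along the body axis, had 17 of 38 members expressed, 17 intermediate and 4 scarce, and none reached 10 FPKM on average. HOXB7 was the highest at 9.59, 8.06 and 8.07 FPKM, followed by HOXB9 at 5.06, 6.45 and 5.03 FPKM and HOXC13 at 4.99, 4.72 and 5.75 FPKM, whose ranges overlapped. HOXA10, known in the Müllerian tract, had 4.50, 4.56 and 4.72 FPKM and HOXC9 4.65, 4.63 and 4.38 FPKM. Levels did not follow gene order within a cluster: HOXA9 averaged 0.0971 ± 0.0217 FPKM between HOXA7 at 2.34 ± 0.451 and HOXA10, and HOXB8 averaged 0.428 ± 0.0976 FPKM between HOXB7 and HOXB9. The scarce members were HOXA2, HOXA11, HOXC12 and HOXD12.

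**Figure D4:**
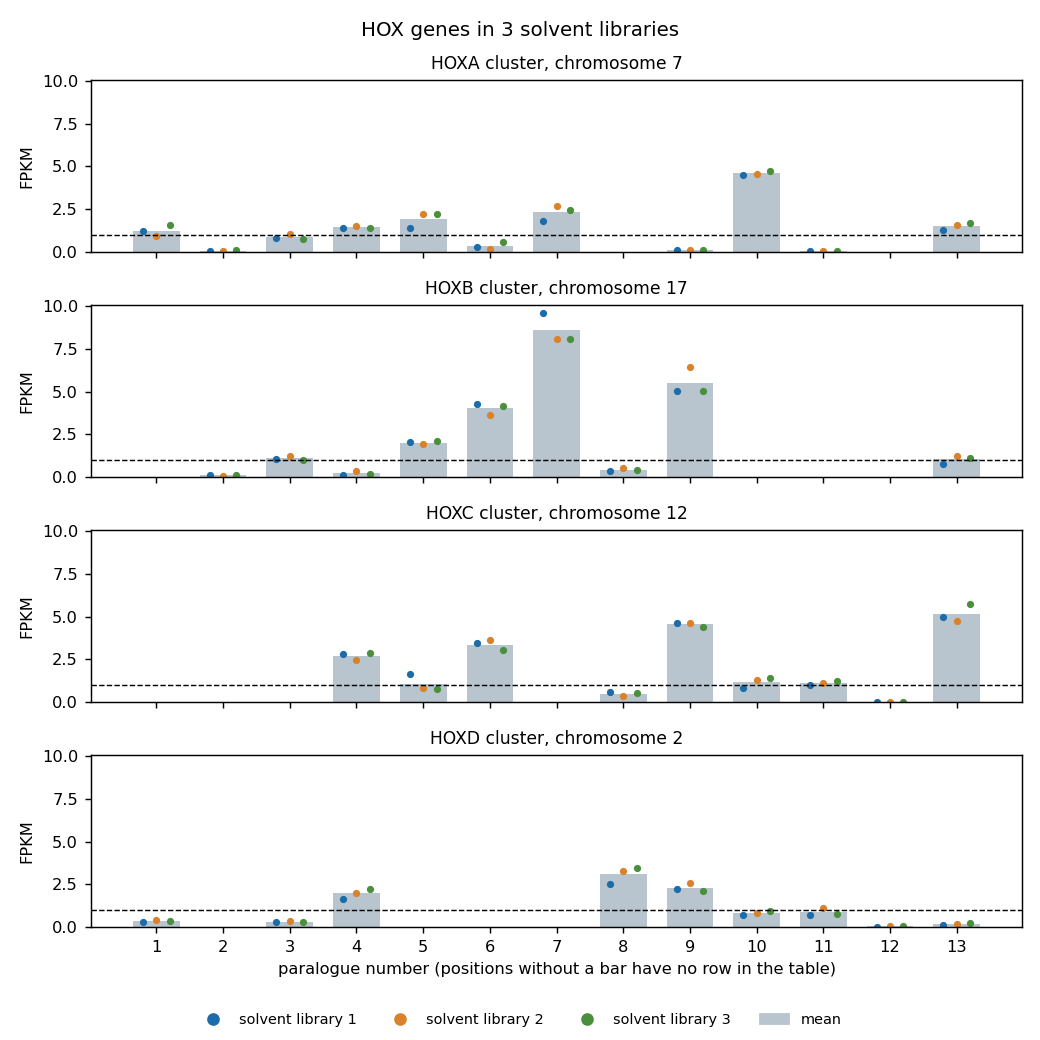
FPKM (vertical axes, linear scale from 0) of HOX genes by paralogue number (horizontal axis) in the 4 clusters; bars are means and points the 3 solvent libraries. The dashed line marks 1 FPKM, and the highest bar is HOXB7 at 8.58 FPKM.

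Among GATA factors GATA4, GATA6 and GATA2 (2.28 ± 0.360 FPKM) were expressed, GATA5 was intermediate at 0.783 ± 0.0541 FPKM and GATA3, of breast and blood, had 0 counts. SOX4, a factor of progenitor cells, averaged 45.8 ± 5.01 FPKM and led its family, of which 4 of 10 were expressed. Among 36 forkhead genes 19 were expressed, and FOXM1, of the cell cycle, was highest at 27.8 ± 1.27 FPKM, followed by FOXD1 at 22.4 ± 2.14 FPKM. All 4 TEAD genes, partners of YAP, were expressed, from TEAD4 at 5.00 ± 0.335 to TEAD1 at 29.1 ± 1.36 FPKM. TBX18, of the coelomic lining, averaged 9.59 ± 0.901 FPKM. LHX9 was the only expressed gene of 6 LIM homeobox genes.

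Markers of other tissues were mostly low. Of 10 endothelial genes 2 were expressed, EGFL7 at 15.7 ± 1.98 and KDR, a receptor for VEGFA, at 3.03 ± 0.382 FPKM. PECAM1 had 6, 4 and 4 counts and CDH5 none, and the median of the list was 0.0876 FPKM. Of 13 blood and immune genes 2 were expressed: CD68, a lysosomal protein, at 33.6 ± 2.94 FPKM and CD74, the invariant chain of MHC class II, at 13.8, 16.7 and 21.3 FPKM. HLA-DRA, of MHC class II itself, averaged 0.179 ± 0.111 FPKM, PTPRC, the leukocyte antigen CD45, 0.235 ± 0.0443 FPKM, and HBB, beta-globin, had 0 counts. Of 16 neural genes 4 were expressed, the adhesion molecule NCAM1 at 45.8 ± 1.36, the tubulin TUBB3 at 37.1 ± 2.73, MAP2 at 5.89 ± 0.497 and MBP at 2.31 ± 0.0481 FPKM. RBFOX3, of neuronal nuclei, averaged 0.00365 ± 0.00632 FPKM. In GENCODE 29, 35.8% of TUBB3 exon bases lie under another coding gene. Of 16 genes of liver, lung, muscle, fat, thyroid, pancreas and gut, 0 were expressed, with ALB, albumin, at 0.126 ± 0.0375 FPKM.

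Of 10 pluripotency and fetal genes 4 were expressed. HMGA1 and HMGA2, chromatin proteins of growing cells, averaged 91.1 ± 5.04 and 4.67 ± 0.523 FPKM. The RNA-binding IGF2BP3 averaged 16.5 ± 0.914 FPKM and IGF2BP2 13.8 ± 0.940 FPKM, while their relative IGF2BP1 averaged 0.00359 ± 0.00621 FPKM. POU5F1 and NANOG had 0 counts, and both have near-identical copies elsewhere, which hold 40.9% of the POU5F1 transcript. Of 15 imprinted genes 7 were expressed, led by MEST at 213, 216 and 234 FPKM and the G protein gene GNAS at 114 ± 4.26 FPKM. Of 50 olfactory receptor genes 3 were expressed, and OR2W3 was far above the others at 39.9, 38.5 and 40.6 FPKM. OR2W3 lies at chr1:247895587-247896531 (hg38), and TRIM58, a ubiquitin ligase gene of red cell precursors, lies near it at chr1:247857187-247880138. TRIM58 averaged 98.3 ± 2.96 FPKM, 2.48 ± 0.0456 times OR2W3.

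**Figure D5:**
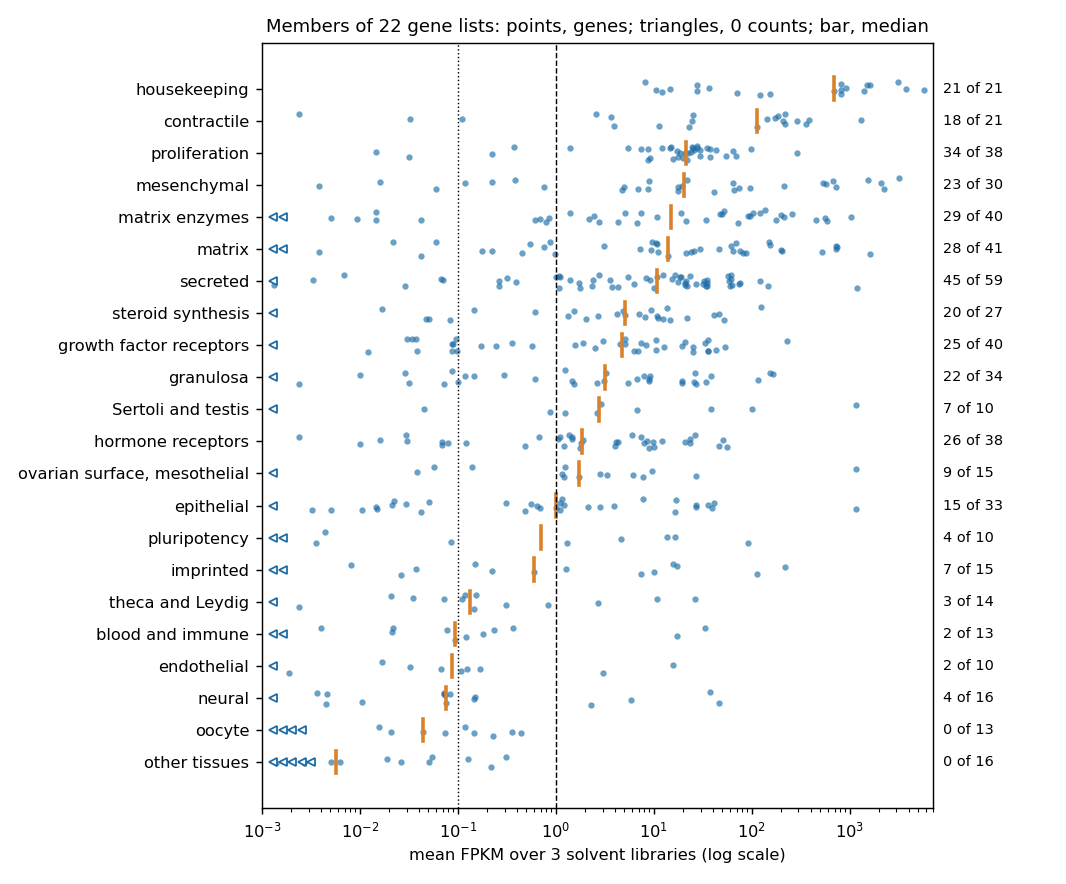
Mean FPKM over the 3 solvent libraries (horizontal axis, log scale) of each member of 22 gene lists (rows; points are genes, open triangles at the left edge are genes at 0 counts, bars are list medians), with the number expressed of the number measured at the right. Dashed and dotted lines mark 1 and 0.1 FPKM; list medians run from 0.00570 FPKM for other tissues to 685 FPKM for housekeeping genes.

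Genes of cell division were expressed almost throughout. Of 38 proliferation and cell cycle genes 34 (89.5%) were expressed, with a median of 21.5 FPKM, against 66.5% and 4.07 FPKM for all genes. MKI67, the Ki-67 antigen, had 24.1, 24.5 and 23.1 FPKM and TOP2A, the topoisomerase of dividing cells, 67.4, 62.8 and 61.2 FPKM. CCNB1, cyclin B1 of mitosis, had 49.6, 42.8 and 35.8 FPKM, with library 1 highest. Among D cyclins CCND1 averaged 98.5 ± 8.06 FPKM, against 0.0315 ± 0.0273 FPKM for CCND2. CDKN1A, the inhibitor p21, was the highest of the list at 265, 305 and 300 FPKM, while CDKN2A, which encodes p16, had 1, 3 and 0 counts. TERT, telomerase, was intermediate at 0.405, 0.355 and 0.363 FPKM.

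The 3 libraries agreed closely for most genes. Over 11312 genes with a mean of at least 50 counts, the median coefficient of variation (CV) of scaled CPM was 5.46%, and the common biological coefficient of variation estimated by edgeR was 5.40%. For 9188 of these genes (81.2%) the CV was under 10%, for 276 it was at least 20% and for 38 at least 30%. The median CV was 13.8% for genes with 50 to 100 counts and 3.53% for the 264 genes with the most counts. The CV expected from counting alone had a median of 11.8% and 0.780% in these classes. The expected CVs are computed from the mean count and the observed ones from 3 libraries, so they are not the same measure. Library 1 was the farthest of the 3 for 39.8% of genes, library 3 for 33.7% and library 2 for 26.5%. Chi-square per degree of freedom, over the genes of a pair of libraries, was 4.31 between libraries 1 and 2, 6.50 between 1 and 3 and 3.73 between 2 and 3, so each pair differed by more than counting noise, which does not show whether they came from separate cultures. Housekeeping genes had a median CV of 2.93%, collagens 4.84%, mesenchymal genes 4.56%, granulosa genes 8.66% and steroid synthesis genes 7.15%. Their levels differ too: the list medians were 685 FPKM for housekeeping genes, 20.5 FPKM for mesenchymal genes and 3.16 FPKM for granulosa genes. The part of the level in these CVs was not tested.

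Among the 8 genes that varied most, U2AF1L5, EIF3CL and KRT16 have a near-identical copy of all or part of the transcript. No such copy was found for CAMK1G, ROS1, MRPL23 and GSTO2. U2AF1L5, whose transcript is 100% near-identical to that of the splicing factor gene U2AF1, had 10, 343 and 11 counts, while U2AF1 itself had 23, 19 and 29. EIF3CL, 100% near-identical to the translation factor gene EIF3C, had 238, 25 and 22 counts, against 139, 98 and 95 for EIF3C. The keratin KRT16 had 109, 62 and 47 counts, with 20.6% of its transcript in a copy. CAMK1G, a calcium-dependent kinase, had 44, 33 and 86 counts, ROS1, a receptor tyrosine kinase, 75, 42 and 38 counts, MRPL23, of the mitochondrial ribosome, 147, 178 and 328 counts, and GSTO2, a glutathione transferase, 37, 54 and 87 counts. The other is a second row of a pseudoautosomal gene and is not given. ALDOA, aldolase A, was the most variable housekeeping gene at 10.1, 16.8 and 17.0 FPKM, and 42.3% of its exon bases lie under another coding gene. The part of these copies and overlaps in the spread was not tested.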

How the data were processed

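The authors deposited raw read counts per gene symbol and FPKM values for the same 15983 genes. Trimmomatic, HTSeq and DESeq are named without version, with hg38, per the submitters' processing notes; for their roles, the aligner, the annotation, strandedness and multi-mapped reads, the handling is not given in the sources used. The deposited FPKM are the counts rescaled: for 11163 of 11163 genes with 50 counts in every library the implied length was whole within 1e-06 of its value. They set levels and calls. TRIzol RNA and a VAHTS Universal V6 kit were used, per the labels' protocols. The smallest of the 3 library totals is 18965722 counts.

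Genes were described without group comparison or test. Members were the 3 libraries labelled solvent, and the 23 gene lists and 35 families were chosen with earlier results of these data known. The rule for named genes took the 30 highest mean FPKM, marked genes of each list, up to 4 further highest members of each list and family, the 8 largest CVs at a mean of 50 counts or more, and missing, scarce or zero members where there were at most 5. Beyond the rule, these were named after their values were seen: AKR1C1, AKR1C2, ALDOA, COL2A1, COL4A1, COL6A1, COL6A3, DES, ESRP1, FDX1, FDXR, HOXA9, HOXB8, HSD17B1, HSD17B12, IGF1, IGF1R, IGF2R, IGFBP2, INHBB, INSR, JUP, KRT15, KRT19, KRT5, KRT86, NR5A2, OXTR, SCARB1, SNAI1, WNT4, ZEB2, TRIM58, MYH9, U2AF1, EIF3C, DSC1, DSC2, DSG1, DSG3, DSG4, UBB and FKBP2.

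CVs used CPM scaled by TMM, and the common dispersion used genes kept by filterByExpr, in edgeR 4.0.16 (R 4.3.3). The dispersion step was tested on simulated counts. Near-identical copies were sought with blastn 2.17.0 among GENCODE 29 transcripts, leaving out genes that overlap the gene searched. Of the gene symbols, 98.1% were RefSeq symbols and 1.40% matched through a synonym. None of 33 listed long noncoding RNAs had a row, and 120 listed symbols in all are not analysed here. Alternatives were other level limits (0.5 and 2 FPKM), TPM, CPM, counts, RLE factors, no count filter and leaving out each library. Some genes that the rule names are not reported here.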

Additional observations from a re-analysis of the deposited data

How the results depend on the processing

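The number of genes expressed was 11342 at a limit of 0.5 FPKM, 9532 at 2 FPKM, 11630 at 1 TPM, 11863 at 1 CPM and 10817 at a mean of 1 FPKM, and between 10680 and 10705 with any library left out, all within 1.5 times of 10633. The expressed members were between 19 and 23 for the granulosa list, 18 and 21 for steroid synthesis, 11 and 21 for epithelial genes and 23 and 25 for mesenchymal genes. Of 57 lists and families, the expressed count changed by more than 1.5 times for 4 at 0.5 FPKM, 4 at 2 FPKM, 6 at 1 TPM, 9 at 1 CPM and 1 at a mean of 1 FPKM, and for none without a library.

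In counts in place of FPKM, which weights long genes, the 10 most abundant genes took 5.71% and the 100 most abundant 22.2%. The biological coefficient of variation ran from 4.21% without library 1 to 6.65% without library 2, and the median CV from 3.93% without library 1 to 5.16% without library 2. The cause was not tested. The levels of 133 named genes moved by less than 1 SD with TMM or RLE factors, and 127 moved by more in TPM, which is between 2.82 and 2.86 times FPKM here. No paired analysis was possible because the libraries of a single group are described and no test compares groups. A count of 0 in a library, taken alone, allows up to 0.158 CPM by counting error at the smallest total. Genes that cells in general use, such as UBB and FKBP2, are also at 0, so a 0 does not bound a transcript. The spread of genes with a mean under 50 counts was not measured.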
